A study of Mus musculus with 10 samples.

Results

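Znrf3, Rnf43, Axin2, Axin1, Apc, Nkd1, Notum and Apcdd1 are 8 inhibitors of Wnt signalling. They were chosen by name, and every peak of aryl hydrocarbon receptor (AHR) chromatin immunoprecipitation with sequencing (ChIP-seq) that overlapped the gene body or 10 kb on either side was taken, in GENCODE release M21 on the mouse mm10 assembly. This gave 38 of the 123652 peaks of the wild type list and 0 of the 1931 peaks of the AHR knockout (KO) list. The libraries came from mouse colon organoids, epithelial cultures grown from crypts, and comprised 4 AHR ChIP and 4 input libraries of wild type organoids and 1 AHR ChIP and 1 input library of AHR KO organoids. Both genotypes were grown in WENR medium, which supplies Wnt3a, EGF, Noggin and R-spondin, and both received 5 nM FICZ, an AHR ligand, for 1 hour, so no library without ligand was compared. The methods describe biological replicates for both genotypes, and whether several KO cultures went into the 1 KO library is not given. The study's methods give the KO organoids as Vil-Cre Ahr fl/fl, in which the Villin promoter drives deletion in intestinal epithelium, and all mice were on a C57BL/6 background. The deposited lists hold peaks and not expression, so the labelled cell type could not be checked against its markers.

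In Wnt signalling, the ligand and its Frizzled and LRP receptors stop a destruction complex from degrading beta-catenin, which then acts on target genes with TCF/LEF factors. Several targets are themselves inhibitors, so the pathway limits its own activity. In the intestinal crypt this feedback is known for restraining stem cells. ZNRF3 and RNF43 are membrane E3 ubiquitin ligases that remove Frizzled receptors from the cell surface, and R-spondins with LGR receptors clear these ligases. AXIN1, AXIN2 and APC are scaffolds of the destruction complex, and AXIN2 is a widely used read-out of Wnt activity. NKD1 binds Dishevelled inside the cell, NOTUM is a secreted enzyme that removes a lipid from Wnt ligands, and APCDD1 is a membrane inhibitor of Wnt.

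Each of the 8 genes had at least 1 wild type peak, and none had a KO peak. Having a wild type peak is common, since 78.3% of 21938 protein-coding genes had one by the same rule, and 4.47% had a KO peak. The authors' score of a peak is its enrichment over background as a ratio, and its median over the wild type list was 5.32 (quartiles 4.53 and 5.98). The median over the 38 peaks was 5.29. Of these, 16 lay above the list's median and 4 lay in its top 10%, which starts at 7.14. One peak stood far above the others, at 22.3 in an intron of Rnf43, and it ranked 42 in the whole list. The wild type cultures were deposited as a single list and the KO as 1 library, so no value below has a replicate error and no test was made. Scores of 23 of the 38 peaks lay on whole multiples of the list's step of 0.332, from which their number of overlapping fragments (the pileup) could be read over a genome-wide background of 2.01 fragments. These pileups ran from 12 to 28 fragments, apart from 66 at the high Rnf43 peak.

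The sequences below carry the patterns described later. They are read from GRCm38, 5′ to 3′ on the plus strand, and centred on the midpoint of each peak. The first is 250 bases of the highest Rnf43 peak, chr11:87686164-87686413, where capitals mark 7 copies of CACGC, the reverse complement of GCGTG, the core of the word that AHR binds with its partner ARNT.
Rnf43 highest peak: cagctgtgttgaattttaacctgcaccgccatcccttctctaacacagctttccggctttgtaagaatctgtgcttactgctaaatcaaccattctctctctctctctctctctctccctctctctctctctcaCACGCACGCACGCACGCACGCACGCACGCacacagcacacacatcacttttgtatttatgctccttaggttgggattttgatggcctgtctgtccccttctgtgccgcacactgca
Of the 38 windows of 200 bp around peak midpoints, 2 held the full word TNGCGTG on either strand. They are chr11:87722116-87722315 and chr8:88523327-88523526, with the word in capitals, as its reverse complement in Rnf43.
Rnf43 peak with the word: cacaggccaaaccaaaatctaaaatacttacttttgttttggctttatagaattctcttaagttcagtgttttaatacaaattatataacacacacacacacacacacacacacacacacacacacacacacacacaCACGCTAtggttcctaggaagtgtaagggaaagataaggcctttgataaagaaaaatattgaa
Nkd1 peak with the word: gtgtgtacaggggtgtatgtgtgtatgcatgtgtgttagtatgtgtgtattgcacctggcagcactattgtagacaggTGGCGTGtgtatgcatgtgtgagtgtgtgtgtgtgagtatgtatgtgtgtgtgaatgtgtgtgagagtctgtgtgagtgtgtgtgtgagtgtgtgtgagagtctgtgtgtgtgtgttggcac
The peaks just upstream of Axin2 and Notum, chr11:108919773-108919972 and chr11:120662058-120662257, are the 2 whose midpoint lay no more than 1 kb before a transcript start, and capitals mark their CA runs of 42 and 29 bases.
Axin2 upstream peak: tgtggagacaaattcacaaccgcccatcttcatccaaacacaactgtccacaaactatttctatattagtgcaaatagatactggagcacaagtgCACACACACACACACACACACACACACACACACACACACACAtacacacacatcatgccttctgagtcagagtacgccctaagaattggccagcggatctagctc
Notum upstream peak: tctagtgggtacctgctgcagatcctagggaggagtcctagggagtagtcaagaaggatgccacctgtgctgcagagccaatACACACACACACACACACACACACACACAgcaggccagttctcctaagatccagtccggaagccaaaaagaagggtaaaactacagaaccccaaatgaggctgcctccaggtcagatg

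The following terms describe the sequence of each 200 bp window. Soft-masked bases are the lower-case letters of the assembly file, which mark repeats. The sequences printed here do not keep that case, since their capitals mark only words or runs. A CA repeat is a window in which CACACA or TGTGTG occurs in at least 3 separate places, and a CT or GA run is an unbroken run of at least 20 bases on either strand. Distances are from the gene's 5′ end to the midpoint of the peak, positive in the direction of transcription. The maps of the 8 genes show each peak's score against its distance from the start. All but the highest Rnf43 peak scored 9.64 or less, and how score relates to distance was not tested.

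**Figure D1:**
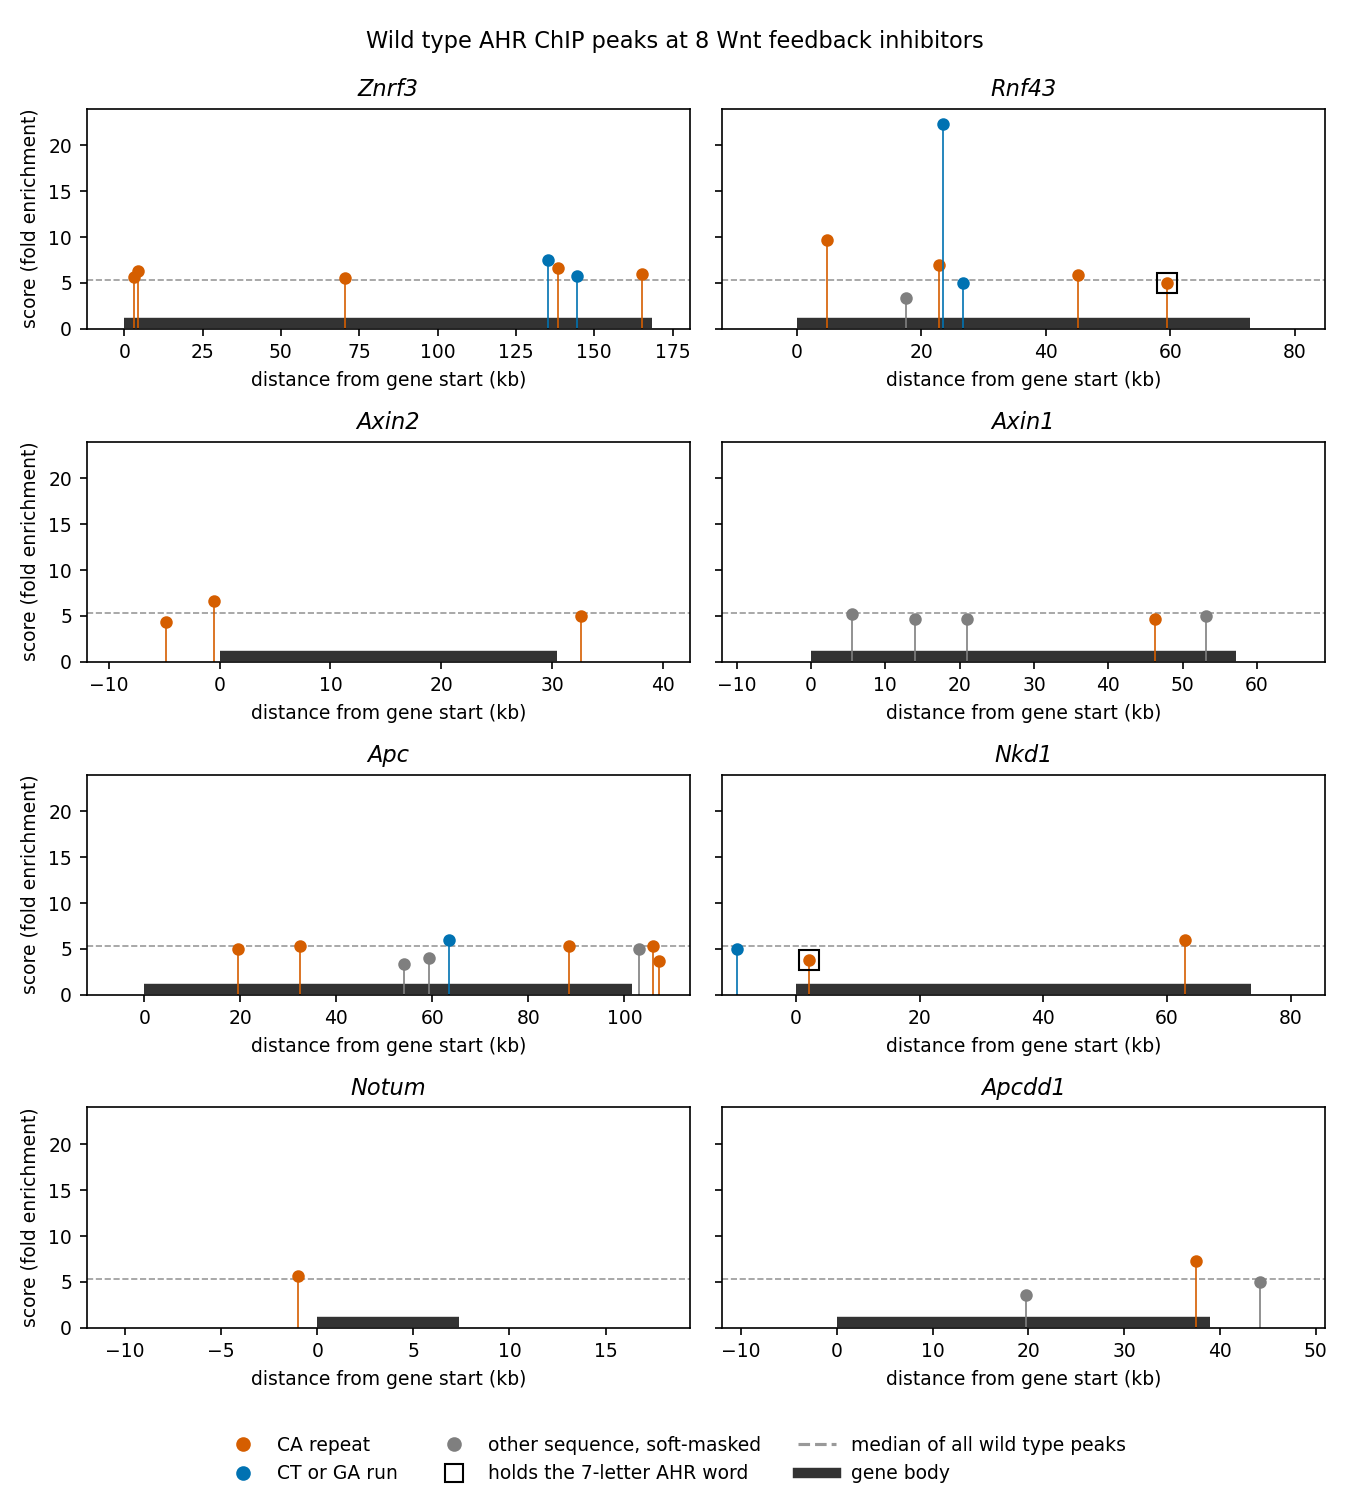
Position of each wild type peak against its gene's start (horizontal axis, kb, positive in the direction of transcription) and its score (vertical axis, fold enrichment), in 1 panel per gene. Points are single peaks coloured by the sequence at the midpoint, squares mark the 2 windows that hold TNGCGTG, bars are gene bodies, and the dashed line is the median of all wild type peaks, 5.32. The Rnf43 peak at 22.3 stands above all others, which reach 9.64.

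Znrf3 encodes the first of the paired ligases and lies on the minus strand of chromosome 11 from 5276324 to 5444847. It had 7 peaks in a region of 188.5 kb, or 3.71 per 100 kb, and 54.5% of protein-coding genes were denser. All 7 scored above the list's median, from 5.59 to 7.46. The 2 nearest the start lay in intron 1 at 2989 bp and 4274 bp, with scores of 5.65 and 6.31, and both were CA repeats with unbroken runs of 41 and 40 bases. A further CA repeat, with a 49-base run and every base of the window masked, lay in intron 1 at 70555 bp and scored 5.59. Intron 2 held 3 peaks close together. The highest, at 135266 bp, scored 7.46 and sat on a CT or GA run, and 24.3% of protein-coding genes with a peak had a higher best peak. Beside it lay a CA repeat at 138323 bp with a score of 6.65, and a 68-base CT or GA run at 144404 bp with a score of 5.78. The last peak, a CA repeat with a 51-base run and a score of 5.98, lay in the 3′ UTR in exon 9, at 165226 bp. No Znrf3 window held TNGCGTG or GCGTG, and the peak in the 3′ UTR held 2 copies of CTTTGA, the core of the TCF/LEF word. Soft-masked shares of the 7 windows ran from 38.0% to 100%.

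Rnf43 encodes the other ligase and lies on the plus strand of chromosome 11 from 87662722 to 87735539. It had the same number of peaks as Znrf3, 7, in a shorter region of 92.8 kb, which gave 7.54 per 100 kb, and 18.9% of protein-coding genes were denser. All 7 lay in introns, 6 of them in intron 2, and their scores ran from 3.41 to 22.3. The peak nearest the start, at 4942 bp, scored 9.64, a pileup of 28 fragments, and was a CA repeat with a 50-base run and 75.5% of bases masked. At 17504 bp a window with neither kind of run scored 3.41, the lowest of the gene. A CA repeat at 22843 bp scored 6.98, with a 45-base CA run beside a CT or GA run of 20 bases. Past the highest peak, described next, lay a 33-base CT or GA run at 26728 bp with a score of 4.98 and a CA repeat at 45108 bp with a score of 5.92 and 1 copy of GCGTG. The peak that held the full word was the last, in intron 3 at 59494 bp, and scored 4.96, under the list's median. It was a CA repeat with a 52-base run and 45.0% of bases masked, and 3 bases of the word lay inside that run. The window also held 1 copy of CTTTGA, the core of the TCF/LEF word.

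The highest Rnf43 peak lay in intron 2 at 23567 bp, chr11:87686067-87686510, and was 444 bp wide. Its score of 22.3, from 66 fragments, compares with 9.64 at the next peak of the 8 genes, which is also in Rnf43, and ranked Rnf43 36 among the 17178 protein-coding genes with a peak. Its window held 7 copies of GCGTG, all on the minus strand, spaced 4 bp apart so that neighbouring copies share a base, within 29 bp. They lay from 9 to 38 bp past the midpoint, and an unbroken 24-base CT run lay from -32 to -8 bp. The bases between the run and the array, printed above, are mostly further CT repeat. Soft-masked bases made up 47.5% of the window, in 1 block around these elements. CACACA or TGTGTG occurred in 2 separate places, just under the limit for a CA repeat, so the window was not counted as one. No copy of GCGTG carried the T needed for TNGCGTG. The map of this peak shows the array and the run side by side near its centre.

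**Figure D2:**
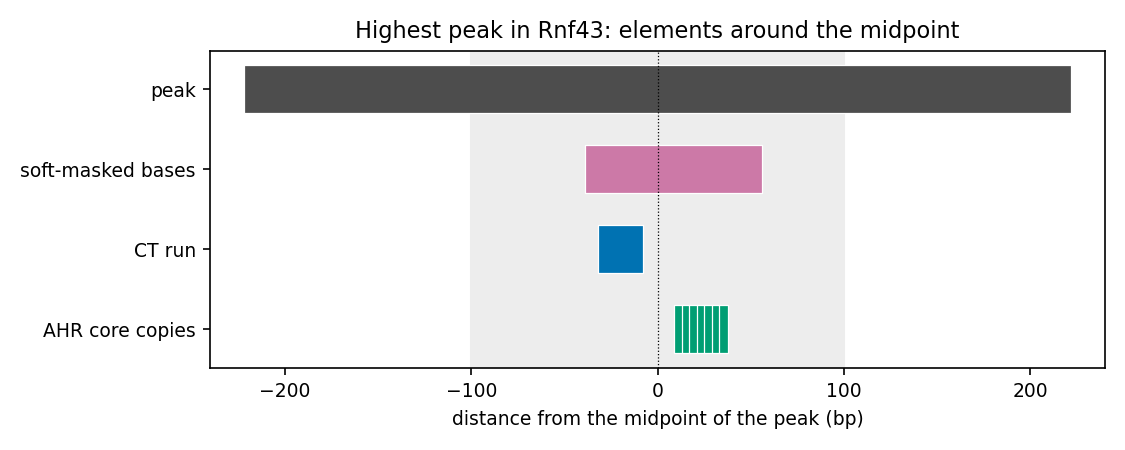
Elements of the highest Rnf43 peak by distance from its midpoint (horizontal axis, bp, plus strand), with the shaded 200 bp window in which words were counted. Green boxes are the 7 GCGTG copies at 9 to 38 bp, the blue box is the 24-base CT run at -32 to -8 bp, and the pink box is the soft-masked block. Shorter CT repeat between the blue and green boxes is not drawn.

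Windows with many core copies were looked for across the wild type list after this peak had been seen. Of 123366 windows on the assembled chromosomes, 705 held at least 7 copies of GCGTG, and their median score was 6.31 (quartiles 5.28 and 7.91) against the 22.3 of Rnf43. CA repeats made up 699 of the 705. The Rnf43 window was among the 6 that were not, with CACACA or TGTGTG in 2 places where 3 are needed. A tandem array of the same 4-base unit, with at least 6 units in a row, was found in 198 windows with a median score of 5.65 and a highest score of 31.4, and 2 of them scored above Rnf43. Without a CA repeat there were 3 such windows, the other two with lower scores than Rnf43. In the other direction, 43 windows, the Rnf43 window among them, scored at least as high as it did. Of these 6 held at least 7 copies of GCGTG, as did 0.571% of all windows, 37 (86.0%) were CA repeats, and 6 overlapped a KO peak (14.0%, 95% Wilson interval 6.56 to 27.3). A KO peak overlapped 1.46% of all windows and 4.82% of the 705 with at least 7 copies. The Rnf43 peak overlapped none, and the nearest KO peak was 1395147 bp away.

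Among the scaffolds of the destruction complex, Axin2 is the feedback target. It lies on the plus strand of chromosome 11 from 108920349 to 108950783 and had 3 peaks, all CA repeats and all outside the gene body. The highest scored 6.58 at -476 bp, just upstream of the start, with the 42-base run printed above and 35.0% of the window masked. One further upstream, at -4803 bp, scored 4.32 on a 44-base run. The last, at 32607 bp, lay 2173 bp past the 3′ end and scored 4.98 on a 54-base run. None of the 3 windows held the TCF/LEF core or either form of the AHR word.

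Axin1, its paralogue, lies on the plus strand of chromosome 17 from 26138688 to 26195811 and differed from Axin2 in what lay under its peaks. It had 5, all in introns, and only 1 was a CA repeat, at 46265 bp in intron 5, with the longest CA run of the 38 windows (68 bases) and a score of 4.65. The other 4 held neither kind of run and were 85.0% to 100% masked. They lay at 5532, 13947 and 20965 bp in intron 2 and at 53132 bp in intron 8, and scored 5.26, 4.65, 4.65 and 4.98. The first of them lay 873 bp past the start of a shorter annotated transcript. All 5 were under the list's median, and 79.0% of protein-coding genes with a peak had a higher best peak. The peak in intron 8 held the gene's 1 copy of GCGTG, in capitals as its reverse complement in the sequence that follows, chr17:26191720-26191919. Its letters resemble those of a B1 element, a short interspersed repeat common in mouse. That likeness is from general knowledge, as no repeat annotation was used.
Axin1 intron 8 peak: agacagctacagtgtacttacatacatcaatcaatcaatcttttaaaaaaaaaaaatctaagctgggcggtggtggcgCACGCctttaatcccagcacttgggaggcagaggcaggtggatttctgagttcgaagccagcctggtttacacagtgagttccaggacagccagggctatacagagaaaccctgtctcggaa

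NKD1 acts on Dishevelled in the cytoplasm, and its gene lies on the plus strand of chromosome 8 from 88521354 to 88594884. It had 3 peaks. The one nearest the start, at 2073 bp in intron 3 of the transcript with the longest coding sequence, held TNGCGTG as TGGCGTG but had a low score of 3.78, above 8.27% of the list. Its window was a broken CA repeat, with no unbroken run over 13 bases and 85.5% of bases masked. The highest, at 62884 bp in intron 5, scored 5.98 on a 60-base CA run, and the third, at -9506 bp, scored 4.96 on a 41-base CT or GA run. Notum, on the minus strand of chromosome 11 from 120653788 to 120661175, had 1 peak, at -983 bp. It scored 5.65 and was a CA repeat with 33.0% of the window masked, the lowest masked share of the 38.

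Apc and Apcdd1 both lie on chromosome 18, Apc from 34220924 to 34322552 and Apcdd1 from 62922231 to 62961179, each on the plus strand. Apc encodes the large scaffold whose loss is known to start most human colorectal tumours. It had the most peaks of the 8 genes, 9 in 121.6 kb or 7.40 per 100 kb, but the highest scored 5.98, at 63494 bp in intron 7 on a 63-base CT or GA run. The peak nearest the start lay 19518 bp into the gene. It was 541 bp wide, the widest of the 38, and scored 4.98 on a broken CA repeat. CA repeats at 32375, 88414 and 106018 bp all scored 5.32, equal to the list's median to 3 digits, and the first 2 held 1 copy of GCGTG each. Another CA repeat at 107122 bp, past the 3′ end, scored 3.73. The other 3, at 54116, 59210 and 103048 bp, held neither run, were masked over the whole window and scored 3.40, 4.03 and 4.98.

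Apcdd1 had 3 peaks. The highest, at 37532 bp, lay in the 3′ UTR in exon 5 and scored 7.31, which put it in the top 10% of the list. It was a CA repeat with 23 separate copies, the most of the 38 windows, though the longest unbroken run was 24 bases, and 97.0% of its bases were masked. The other two, at 19727 bp in intron 3 and at 44188 bp past the 3′ end, held neither run and scored 3.61 and 4.98. No Apcdd1 window held GCGTG or CTTTGA. The nearest peak to its start was thus 19727 bp away, and the smallest distances to any annotated transcript start were 5601 bp at Apc and 8448 bp at Apcdd1.

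Across the 8 genes, 27 of the 38 midpoints lay in introns, 2 in 3′ UTRs, 4 upstream and 5 downstream, and none lay inside another gene. The matching shares over all wild type peaks are not given here, so these counts are not read as a trait of the 8 genes. Peaks at a start, with a midpoint no more than 1 kb before or 100 bp after a transcript start, were found at 2 genes, Axin2 and Notum, against 9.27% of all protein-coding genes. A peak with TNGCGTG was found at 2 genes, Rnf43 and Nkd1, against 6.74% of genes, and a peak in the top 10% of scores at 3, Rnf43, Znrf3 and Apcdd1, against 23.0% of genes. With 8 genes, whose regions are longer than most (median 85.0 kb against 37.4 kb over all protein-coding genes), these counts were not tested. Pooled over the regions, the 8 genes had 5.35 peaks per 100 kb and all protein-coding genes had 4.53. The median of the best scores was 6.28 over the 8 genes and 6.31 over protein-coding genes with a peak.

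The repeat and motif content of the 38 windows was set beside that of all 123366 wild type windows. CA repeats made up 22 of the 38 (57.9%, interval 42.2 to 72.1) and 57.3% of all windows. A CT or GA run was found in 7 (18.4%, interval 9.22 to 33.4) and in 17.2% of all windows. Without a CA repeat it was found in 6 (15.8%, interval 7.44 to 30.4), all at Znrf3, Rnf43, Apc or Nkd1, and in 6.81% of all windows. This sub-class was defined after the peaks had been seen. The remaining 10 (26.3%) held neither, against 35.9% of all windows. At least 50% of bases were masked in 28 (73.7%, interval 57.99 to 85.03), in 86.0% of all windows and in 83.9% of the 58845 windows in or within 10 kb of protein-coding genes. At least 75% were masked in 21 (55.3%, interval 39.7 to 69.9), and in 62.3% and 58.6% of those windows. None of the 38 was under 25% masked (interval 0 to 9.18, and 3 counts would give 7.89%), and 0.454% of all windows were. The core GCGTG was found in 7 (18.4%) and in 17.7% of all windows, TNGCGTG in 2 (5.26%) and in 2.84%, and CTTTGA in 2 (5.26%) and in 5.57%. The plot of shares shows how far the intervals of the 8 genes reach.

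**Figure D3:**
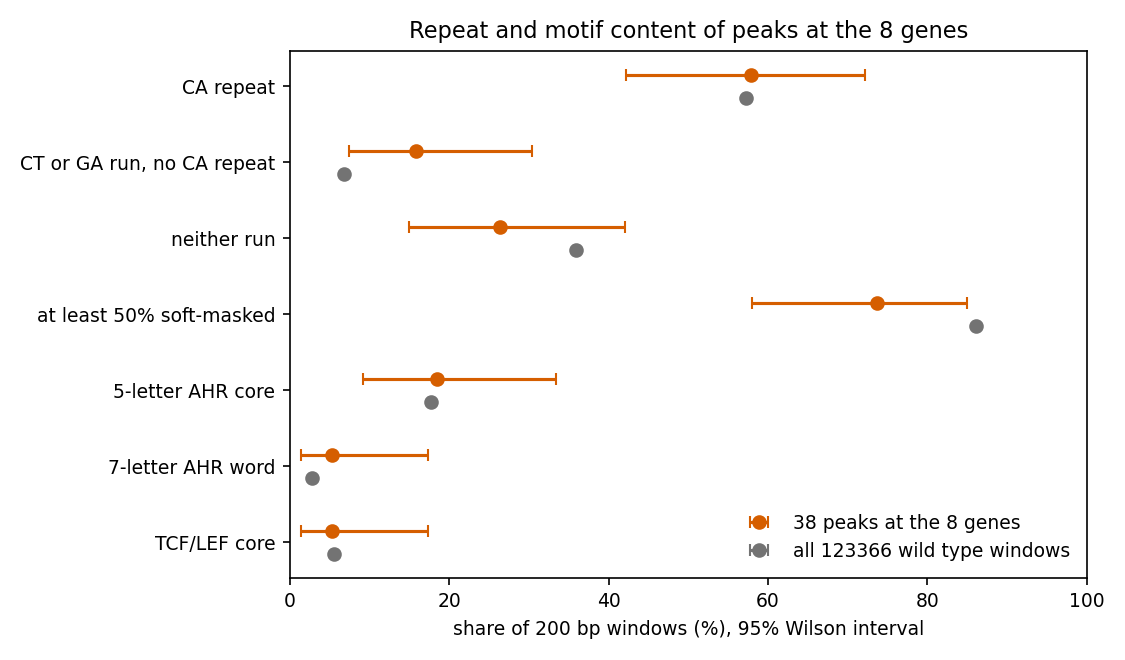
Share of 200 bp windows (horizontal axis, %) with each repeat or word, for the 38 peaks at the 8 genes and for all 123366 wild type windows, with 95% Wilson intervals that cover counting error only. The interval of the 38 peaks holds the value of all windows for CA repeats, windows with neither run and the 3 words, and lies just above it for CT or GA runs without a CA repeat and just below it for masked windows, where it does hold the 83.9% of peaks at protein-coding genes.

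Within the 38 peaks, CA repeats had a median score of 5.62 (3.73 to 9.64, n = 22), CT or GA runs 5.88 (4.96 to 22.3, n = 6), and windows with neither 4.65 (3.40 to 5.26, n = 10). Over the whole list the medians were 5.65 for CA repeats, 5.32 for CT or GA runs without a CA repeat and 4.45 for windows with neither. All 10 of the last kind thus lay under the list's median of 5.32. Of the CA repeats, 19 held an unbroken run of at least 20 bases, and in 16 of these the centre of the run lay within 50 bp of the midpoint of the peak. The median distance over the 19 was 14.0 bp and the highest 99.0 bp. These distances over all CA repeats of the list are not given here, so they are not read as a trait of these genes. The treatment of reads with several possible positions is not given in the sources used here, and their part in these peaks was not tested.

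Because peaks cannot show the runs and words that had no peak, the 8 regions were searched for all of them. They held 30 unbroken CA or TG runs of at least 40 bases, of which 17 overlapped a wild type peak (56.7%, interval 39.2 to 72.6). Genome-wide this was 41462 of 108683 (38.1%). Znrf3 had a peak on 6 of 8 such runs, Rnf43 on 4 of 7, Axin2 on 3 of 5, Apc on 2 of 2 and Axin1 on 1 of 1, whereas Nkd1 had one on 1 of 4 and Apcdd1 on 0 of 3. Below 40 bases the shares at the 8 genes were under those of the genome, with 14 of 63 runs of 12 to 19 bases (22.2%, interval 13.7 to 33.9, against 27.4%), 4 of 21 of 20 to 29 bases (19.05%, interval 7.67 to 40.001, against 24.8%) and 3 of 21 of 30 to 39 bases (14.3%, interval 4.98 to 34.6, against 27.9%), and all 3 intervals hold the genome's value. Of the 14 shortest runs in a peak 8 were at Apcdd1, where only 1 peak was a CA repeat. Runs that share a peak are not independent, although the intervals count them as such. Without that gene the count was 6 of 47 (12.8%, interval 5.99 to 25.2), an interval that lies under the genome's 27.4%. For CT or GA runs of at least 40 bases the counts were 5 of 11 (45.5%, interval 21.3 to 71.99) and 24.9% genome-wide. The AHR word was seldom in a peak. Of 55 copies of TNGCGTG in the 8 regions 2 lay in a wild type peak (3.64%, interval 1.00 to 12.3), against 2.75% genome-wide, and of 464 copies of GCGTG 13 did (2.80%, interval 1.65 to 4.73), against 4.73%. Rnf43 held 9 of those 13, of which 7 form the array in its highest peak. Copies in 1 peak are not independent, so the interval for GCGTG is too narrow. Of 612 copies of CTTTGA 4 lay in a peak (0.654%, interval 0.254 to 1.67), against 0.449% genome-wide.

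**Figure D4:**
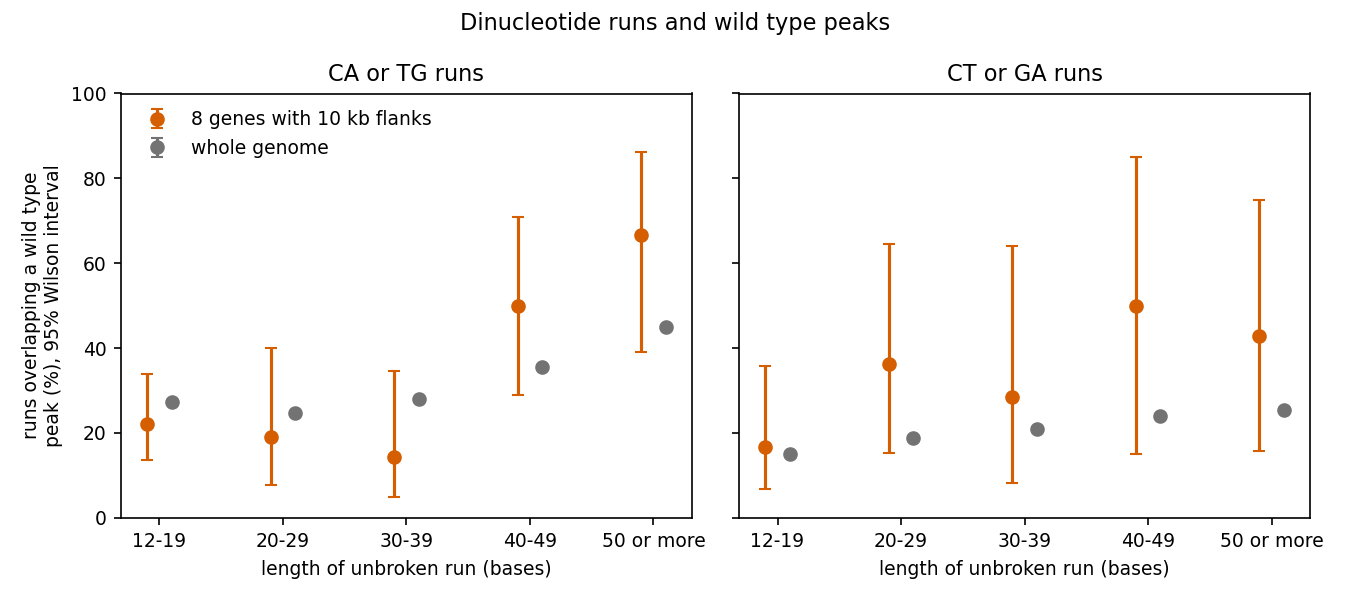
Share of unbroken runs that overlap a wild type peak (vertical axis, %, with 95% Wilson intervals) by length of the run (horizontal axis, bases), for CA or TG runs and for CT or GA runs, in the 8 regions and in the whole genome. CA runs of 50 bases or more overlapped a peak in 66.7% of cases at the 8 genes and 44.9% genome-wide, while those of 12 to 19 bases did so in 22.2% and 27.4%.

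RefSeq promoter sequences, 250 bases before to 50 after a start on GRCm38.p6, were at hand for 3 of the 8 genes, Rnf43 with 2 starts, Axin2 and Nkd1. No wild type peak overlapped any of these 4 windows, and 0.962% of all 32851 RefSeq promoters overlapped one. The Nkd1 window held TNGCGTG once and the first of the Rnf43 windows held GCGTG once, without the rest of the word. Across the same 32851 promoters 5.07% held TNGCGTG and 32.4% held GCGTG, on either strand.

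The KO list shows what the antibody recovers in the absence of AHR, and it held no peak in the 8 regions. How much this shows depends on depth. The KO list's step of 0.777 gives a background of 0.287 fragments, 6.998 times less than that of wild type, although 17.3% of KO scores lay on that step against 51.6% in wild type. Scaled down by that ratio, 22 of the 23 wild type peaks with a readable pileup would have had 1.71 to 4.00 fragments, fewer than the 5 of the lowest KO peak whose pileup could be read. The high Rnf43 peak would have had 9.43, above the median of 8 over KO peaks with a readable pileup. Of the 63810 wild type peaks with a readable pileup 0.309% would have had at least 5. Most KO peaks had no readable pileup, and their scores went down to 2.36, so the smallest pileup that could be called in the KO is not known. Whether the KO would have shown the 22 peaks at its depth therefore cannot be told, and for the other 15 the wild type pileup could not be read. Just outside the regions, 3 KO peaks lay within 50 kb. At Znrf3 they lay -12117 and -19645 bp from the start with scores of 8.57 and 6.43, and at Nkd1 -22792 bp with a score of 7.17. All 3 were CA repeats and each overlapped a wild type peak, and the same shares over all KO peaks are not given here. Those wild type peaks scored 7.96, 7.64 and 9.67, and the second-highest peak of the 8 genes scored 9.64. The KO list thus held peaks at some sites whose wild type scores were no higher than, or close to, that value.

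**Figure D5:**
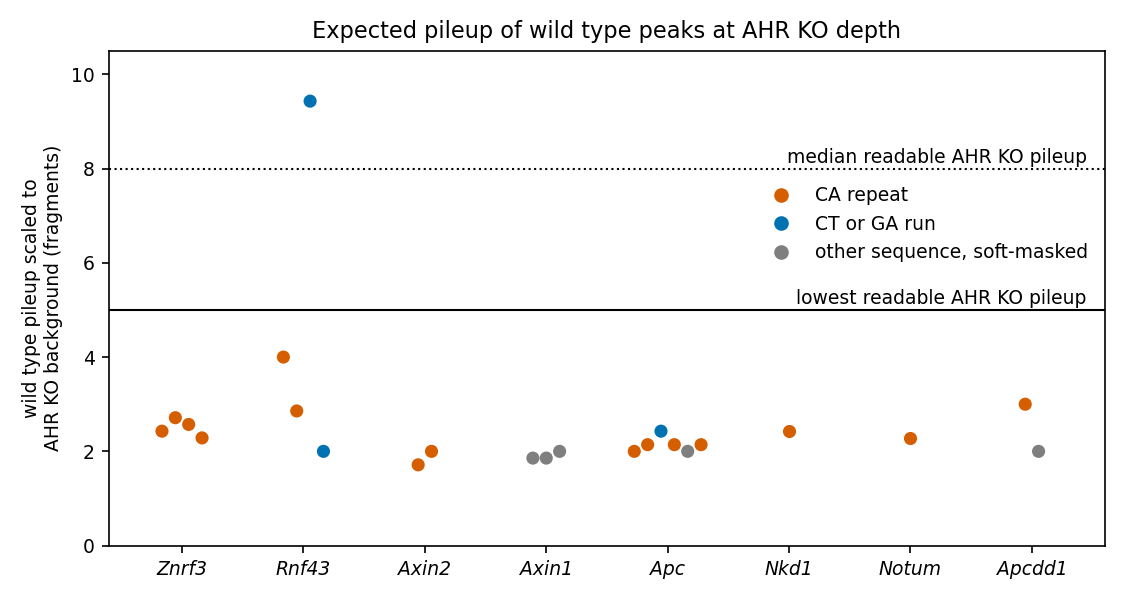
Pileup of each wild type peak of the 8 genes whose pileup could be read, multiplied by the ratio of the KO to the wild type background (vertical axis, fragments), by gene. The solid line is the lowest pileup that could be read for a KO peak, 5, and the dotted line the median of those read, 8. The high Rnf43 peak lies above both at 9.43, and the other 22 lie between 1.71 and 4.00.

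Other genes of the pathway were described by the same rule, from 3 lists of 34 genes in all. Of these 24 had a wild type peak, with 103 peaks between them, and the median of their best scores was 6.70, where all protein-coding genes had a peak in 78.3% of cases and a median best score of 6.31. Among 11 further members of the destruction complex and intracellular inhibitors 7 had a peak, and the best reached 6.90 at Gsk3b, the kinase that phosphorylates beta-catenin. Among 16 secreted and membrane inhibitors 11 had one, up to 10.3 at Dkk4, whose product blocks LRP receptors. Among 7 R-spondins and LGR receptors 6 had one, up to 9.65 at Lgr5, the R-spondin receptor that marks crypt stem cells, followed by 8.31 at Rspo2, a score shared by the secreted inhibitor Draxin. No gene of the 34 came near the 22.3 of Rnf43. Genes with no wild type peak were Apc2, Gsk3a, Dact1, Dact2, Sfrp4, Sfrp5, Sost, Sostdc1, Kremen2 and Rspo4, with regions of 24.3 to 51.7 kb. A KO peak was found at 1 of the 34, against 4.47% of protein-coding genes. It lay at Sfrp1, a secreted Frizzled-related protein that binds Wnt ligands.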

How the data were processed

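AHR ChIP-seq and input libraries of 4 wild type cultures and of AHR KO organoids (1 library each) were sequenced as single-end reads by the authors, aligned to mm10 with BWA 0.7.15, marked for duplicates with Picard 2.1.1 and called against input with MACS2 2.1.1, and annotated with HOMER 4.8. The deposited score was taken, from its values, as the fold enrichment of MACS2, the pileup plus 1 over the background plus 1. The wild type list was made by the authors from all wild type cultures, and the study's methods give a mean read number over samples but not that of each library. No column of other samples was found (0).

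Peaks were joined to GENCODE M21 from 1 bp of overlap. Printed starts have 1 added, on the assumption that the files count from 0. Sequence was read from GRCm38, whose chromosome lengths were the same as in mm10, with pysam 0.24.0, in windows of 200 bp around midpoints on chromosomes 1 to 19, X and Y. Words were matched on both strands. GCGTG is part of TNGCGTG, so every copy of the second also counts as the first. Backgrounds were read from the step, equal to 1 divided by the background plus 1, the coarsest one with close to the most scores within 0.0005 of a whole multiple (51.6% in wild type and 17.3% in the KO list). Shares have 95% Wilson intervals, and beside the count of 0 windows under 25% masked stands the share that 3 counts would give, both for counting error only. No test was made.

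The 8 genes, the other Wnt genes, the words and the alternatives were chosen with earlier results of these data known, and the CT or GA run and the tandem array after the peaks had been seen. All 8 genes were named, with every peak. For the other Wnt genes, those with the 3 highest peaks, with no wild type peak or with a KO peak were named, and Gsk3b, the highest of its list, was chosen after its value was seen. Scripts were tested on simulated data. Sequences are printed for 6 of the 38 peaks, and 1 further sequence is not reported here.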

Additional observations from a re-analysis of the deposited data

How the results depend on the processing

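No paired analysis was possible because the wild type cultures were deposited as a single list and no result comes from a test. For the same reason no culture could be left out. Of 57 alternatives, 41 stayed within 1.5 times a count or within the interval of a share or median. With 50 kb on either side there were 74 wild type and 3 KO peaks. The top 10% of scores left 4 wild type peaks at 3 genes (median score 8.55), and 12 peaks at the other Wnt genes. The upper 50% left 19 peaks (median 5.98), of which 78.9% were CA repeats and 0% held TNGCGTG, and 0% of windows without a CA repeat held it. Windows of 500 bp gave CTTTGA in 28.9% and at least 50% masked in 52.6%, and a limit of 75% masked gave 55.3%. Within 2 kb of a start on either side there were 4 peaks. Gene bodies alone gave 67 peaks at the other Wnt genes. The numbers of peaks follow from the wider or narrower regions and score limits by construction, and the cause of the moves in shares was not tested. Without Rnf43, an alternative added after the data were seen, the number and median score of the peaks stayed within these bounds. No replicate error is known for any value, and handling of multiply mapped reads was not tested.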
